A study of Mus musculus with 4 samples.

Results

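Cidea, Adipoq, Plin4 and Gpd1 are genes of fat cells, and their log ratios were examined on 4 two-colour microarrays of mouse lung. They were picked by gene symbol, 4 of the 13410 genes with a probe on the array, because they had lain below 0 in an earlier reading of the same arrays. Their values are therefore described here with no test. Each array held amplified lung RNA of a single A/J mouse treated with bleomycin, in 1 channel, and 1 shared pool in the other, made of amplified lung RNA of control A/J mice. A/J is an inbred laboratory strain, and bleomycin is a DNA-damaging drug used to injure the lung. The labels give no dose, route, time after treatment, age or sex, nor the number of mice in the pool.

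White fat cells store triglyceride in 1 large lipid droplet and secrete hormones, whereas brown fat cells hold many small droplets and burn fat in mitochondria to make heat. Cidea encodes a lipid droplet protein that promotes droplet enlargement and is abundant in mouse brown fat. Adipoq encodes the hormone adiponectin, which fat cells secrete, and Plin4 encodes a perilipin that coats lipid droplets. Gpd1 encodes the cytosolic glycerol-3-phosphate dehydrogenase, which supplies the backbone for triglyceride and is expressed in fat cells as well as in liver and muscle. Fat lies beside the lung in the mediastinum, and the lung itself holds lipid-storing fibroblasts.

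The deposited value of a spot is a log ratio of the 2 channels. Neither the labels nor the table says which RNA is on top, so values are given by their side of 0, and all would change sign if the pool were the numerator. No dye swap is recorded. The logarithm was read as base 2, which the sources do not state, and fold sizes hold only under that reading. The pool is common to all arrays and is 1 control sample, so the spread between control mice is left out. A difference between arrays does not contain the pool's level. In whole-lung RNA, a difference in the number of cells of a type and a difference in RNA per cell cannot be told apart. Values were present for 9427 to 12136 of 17280 spots per array, and arrays correlated with r of 0.45 to 0.86 over spots, most closely for mice 3 and 4 (0.86) and mice 1 and 2 (0.73).

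For orientation, the 250 bases before the transcription start are shown for both members with an entry in the RefSeq promoter table, and for Ucp1, the brown fat gene whose profile was nearest to that of Cidea among genes with a value on all 4 arrays. They are from the build GRCm38.p6 and read 5′ to 3′ on the strand of the gene. Capitals mark matches to the motifs searched on both strands.

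Adipoq, chr16:23146286-23146535, plus strand: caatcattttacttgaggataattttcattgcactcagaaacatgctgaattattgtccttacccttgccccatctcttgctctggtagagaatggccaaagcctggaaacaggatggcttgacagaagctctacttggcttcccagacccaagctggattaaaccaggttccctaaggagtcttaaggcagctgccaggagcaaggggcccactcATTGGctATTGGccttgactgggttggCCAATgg

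Plin4, chr17:56109783-56110032, minus strand: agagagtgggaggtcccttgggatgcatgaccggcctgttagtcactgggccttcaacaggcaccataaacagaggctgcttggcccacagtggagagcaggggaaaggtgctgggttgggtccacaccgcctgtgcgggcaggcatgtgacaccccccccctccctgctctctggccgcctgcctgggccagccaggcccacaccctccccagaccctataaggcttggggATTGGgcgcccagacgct

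Ucp1, chr8:83290098-83290347, plus strand: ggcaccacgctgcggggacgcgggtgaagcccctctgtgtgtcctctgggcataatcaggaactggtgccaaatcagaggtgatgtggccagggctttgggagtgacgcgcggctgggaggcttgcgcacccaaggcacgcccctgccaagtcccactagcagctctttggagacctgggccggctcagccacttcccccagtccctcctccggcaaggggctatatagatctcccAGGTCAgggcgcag

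The Adipoq stretch held 3 matches to the CCAAT box, which begin 34, 27 and 7 bases before the start, and the Plin4 stretch held 1, at 18 bases. CCAAT was present in 33.9% of all 32851 promoter stretches of this length. AGGTCA, a motif bound by nuclear receptors and present in 14.02% of them, was found in Ucp1 only among the 3, at 14 bases before the start. The letters of the C/EBP motif TTGCNNAA (9.56% of promoters) and of the TATA box TATAAA (12.4%) were not in these 3 windows. No matches overlapped. Cidea and Gpd1 have no sequence printed.

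Cidea, the brown fat gene among the 4, lay farthest below 0. Its log2 ratios were -2.11, -0.72, -4.44 and -2.84 in mice 1, 2, 3 and 4, with a mean of -2.53 ± 1.55 (SD, n = 4), a 5.76-fold difference. All 4 values were below 0, and mouse 2 was the closest to it. Cidea was the lowest of 7941 genes with a value in mouse 3 and the second lowest of 8590 in mouse 4, where the muscle gene Tnnc2 alone lay lower. It ranked 33 from the bottom of 9994 genes in mouse 1 and 436 of 9500 in mouse 2. Mice 2 and 3 stood 3.72 apart on the log2 scale, and the SD between mice was larger than or equal to that of 99.9% of the 8384 genes tested.

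Adipoq, the general fat cell hormone gene, was next. For mice 1, 2, 3 and 4 the log2 ratios were -1.83, -0.12, -2.19 and -2.21, with a mean of -1.59 ± 0.99 (SD, n = 4), a 3.01-fold difference. Mice 1, 3 and 4 lay close together in this gene, and mouse 2 was near 0. Without mouse 2 the mean was -2.08 ± 0.21 (SD, n = 3). On rank from the bottom, Adipoq was 6 of 8590 genes in mouse 4, 19 of 7941 in mouse 3 and 46 of 9994 in mouse 1, but 2934 of 9500 in mouse 2, which is the lower 30.9% of that array.

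Plin4 and Gpd1 had means closer to 0. Plin4 had a log2 ratio of -1.07 in mouse 1, -0.805 in mouse 3 and -0.49 in mouse 4, and no value in mouse 2, so its mean of -0.79 ± 0.29 (SD, n = 3) leaves out the mouse in which the other members were closest to 0. Gpd1 had -0.50, -0.27, -0.78 and -0.61 in mice 1 to 4, with a mean of -0.54 ± 0.21 (SD, n = 4). These are differences of 1.73-fold and 1.45-fold. Over mice 1, 3 and 4, the arrays that all members share, the SD was 1.19 for Cidea, 0.21 for Adipoq, 0.29 for Plin4 and 0.14 for Gpd1. Gpd1 was within the lowest 2.14% of genes in mouse 4 and 3.69% in mouse 3, and within the lowest 8.57% in mouse 1 and 17.5% in mouse 2. Plin4 was within the lowest 1.84% to 3.36% on its 3 arrays.

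**Figure D1:**
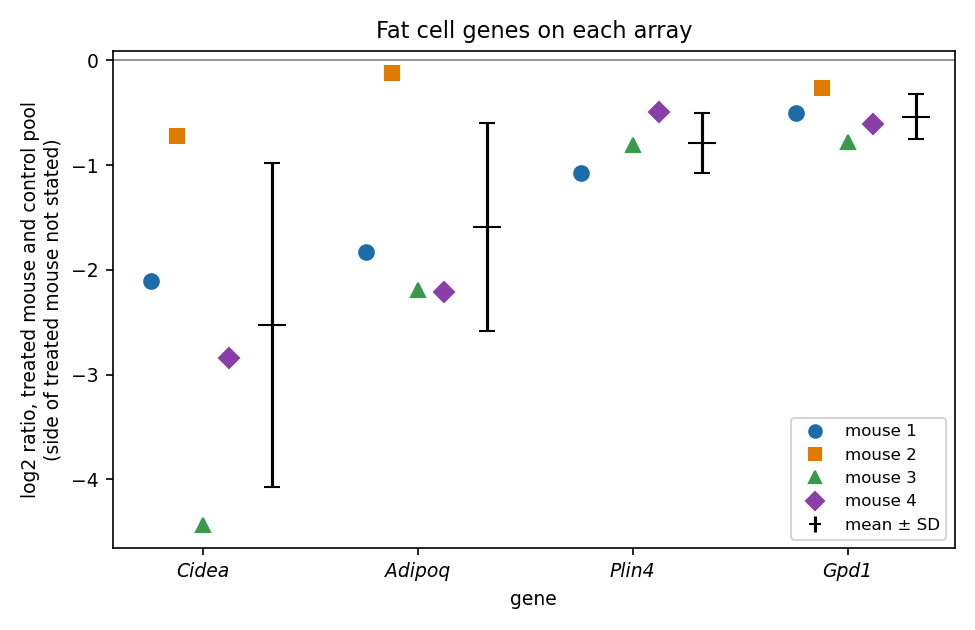
Log2 ratio of the treated mouse and the control pool (vertical axis) for the 4 fat cell genes (horizontal axis), with 1 marker per mouse and the mean ± SD as a bar. Mouse 2 was closest to 0 in Cidea (-0.72), Adipoq (-0.12) and Gpd1 (-0.27), and Plin4 has no value in that mouse.

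**Figure D2:**
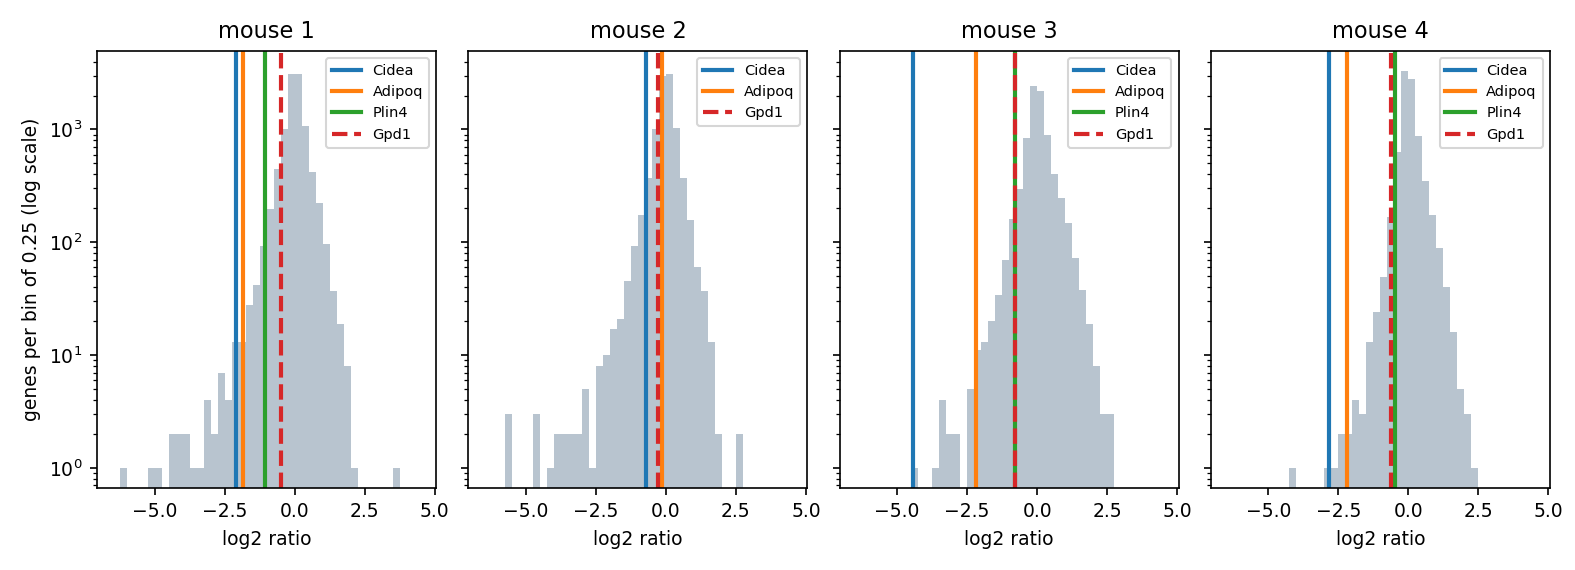
Number of genes per bin of log2 ratio (log scale) on the array of each mouse, with a vertical line at each fat cell gene that has a value. Cidea lies at the lower end of the distribution in mice 3 (-4.44) and 4 (-2.84) and inside its lower flank in mouse 2 (-0.72).

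Each of the 4 genes was represented by 1 probe, so no second probe bears on these values. By mean the order was Cidea, Adipoq, Plin4 and Gpd1. With all values of each gene, neighbours in this order were within the spread between mice of at least 1 of the genes. The order was not the same on every array. Adipoq minus Plin4 was -0.76, -1.38 and -1.72 in mice 1, 3 and 4, with a mean of -1.29 ± 0.49 (SD, n = 3). Over these mice, which leave out mouse 2, that gap was larger than the SD of Adipoq (0.21) or Plin4 (0.29). The difference Cidea minus Adipoq was -0.28, -0.59, -2.25 and -0.63 in mice 1 to 4, with a mean of -0.94 ± 0.89 (SD, n = 4). Cidea was thus the lower of the 2 in all 4 mice, and only in mouse 3 by more than 1 log2 unit. The difference Cidea minus Gpd1 was -1.61, -0.45, -3.66 and -2.23 in mice 1 to 4, with a mean of -1.99 ± 1.34 (SD, n = 4). Cidea minus Plin4 was -1.04, -3.63 and -2.35 in mice 1, 3 and 4, with a mean of -2.34 ± 1.30 (SD, n = 3). Adipoq minus Gpd1 was -1.33, 0.14, -1.41 and -1.597 in mice 1 to 4, so that Adipoq was the higher of the 2 in mouse 2 alone. Plin4 minus Gpd1 was -0.57 in mouse 1, -0.03 in mouse 3 and 0.12 in mouse 4. Different probes can compress ratios to different degrees, so a gap between 2 genes is a gap between the log ratios of their probes.

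Means of other brown fat genes ranged between -2.16 and 0.14, and none was as low as that of Cidea. Of 16 tested genes of this list without the 4 members, 2 passed the test below 0 and 0 above, with a median log2 ratio of -0.26, beside 0.0015 over all 8384 genes tested. The test was limma's moderated test of the mean log ratio against 0 with Benjamini-Hochberg adjustment, and a gene needed a value on at least 3 arrays. Of all genes tested 12.5% passed, 4.81% below 0 and 7.69% above. These shares are the background for the counts of every list that follows. In all, 9 of the 16 were below 0 on every array with a value, beside 22.3% of all genes.

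Ucp1, the uncoupling protein that lets brown fat mitochondria make heat, had log2 ratios of -2.06, -0.06, -3.43 and -2.03 in mice 1, 2, 3 and 4. Its mean was -1.89 ± 1.39 (SD, n = 4), which missed the threshold (limma adjusted p = 0.0612). Mice 1, 3 and 4 were far below 0 and mouse 2 was near it. Ucp1 passed without mouse 2 (limma adjusted p = 0.0226), but not without mouse 1, 3 or 4 (limma adjusted p from 0.128 to 0.161). Cox7a1 and Cox8b, isoforms of cytochrome c oxidase subunits found in brown fat, heart and skeletal muscle, were the genes that passed, at -2.16 ± 1.22 and -2.15 ± 1.36 (SD, n = 4; limma adjusted p = 0.0358 and 0.0453). Cox7a1 had -2.63, -0.645, -3.52 and -1.84 in mice 1 to 4, and Cox8b had -2.88, -0.305, -3.40 and -1.999. Both were lowest in mouse 3 and closest to 0 in mouse 2. Neither call held in the fits that left out mouse 1, 3 or 4 (limma adjusted p from 0.0756 to 0.131).

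Regulators of brown fat gave smaller values. Ppargc1a, a coactivator of mitochondrial biogenesis, was at -0.05 ± 0.18 (limma adjusted p = 0.726) and Dio2, which activates thyroid hormone in brown fat, at -0.27 ± 0.45 (limma adjusted p = 0.332; SD, n = 4). Zic1 and Tbx1, developmental transcription factors expressed in brown and beige fat, were below 0 on every array with a value, at -0.62 ± 0.36 (SD, n = 3) and -0.45 ± 0.28 (SD, n = 4), and neither reached the threshold (limma adjusted p = 0.0645 and 0.0583). Ppara, a regulator of fatty acid oxidation, was at -0.67 ± 0.40 (SD, n = 3; limma adjusted p = 0.0656). Fabp3, a fatty acid binding protein of heart, muscle and brown fat, was at 0.54 in mouse 2, -2.15 in mouse 3 and -0.96 in mouse 4. These last 4 genes were named after their values were seen. Elovl3, a brown fat elongase, and Prdm16, a determinant of brown fat identity, had a probe with no value on any array.

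General fat cell genes other than the members had means between -0.75 and 0.81. Of 15 tested genes of that list without the 4 members, 1 passed below 0 and 0 above, and the median log2 ratio was 0.004. By mouse the median was -0.13, 0.13, 0.04 and -0.06 in mice 1 to 4. Tmem120b, which encodes a nuclear envelope protein of fat cell differentiation, was the gene that passed, at -0.72 ± 0.38 (SD, n = 4; limma adjusted p = 0.0361), and it was lost whichever mouse was left out (limma adjusted p from 0.0505 to 0.105). Slc2a4, the insulin-responsive glucose transporter of fat and muscle, had -1.15, 0.001, -1.43 and -0.42 in mice 1 to 4, and missed the threshold (mean -0.75 ± 0.66, SD, n = 4; limma adjusted p = 0.0992). Car3, a carbonic anhydrase abundant in fat and slow muscle, was at -0.61, 0.14, -0.42 and -0.38 (limma adjusted p = 0.1596). It passed without mouse 2 (limma adjusted p = 0.0493), but not without mouse 1, 3 or 4 (limma adjusted p from 0.324 to 0.393). Both genes were thus closest to 0 or above it in mouse 2.

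Nnat, an imprinted gene expressed in fat and nerve, was at -0.83, -0.04 and -0.69 in mice 1, 2 and 4 (limma adjusted p = 0.121). It was likewise closest to 0 in mouse 2. Nnat passed without that mouse (limma adjusted p = 0.0439), but not without mouse 1, 3 or 4 (limma adjusted p from 0.143 to 0.340). This gene was named after its values were seen. Other general genes gave small values or values above 0. Pparg, the master regulator of fat cell differentiation, was at 0.08 ± 0.43 (SD, n = 4; limma adjusted p = 0.789); mice 1 and 2 differed most, at -0.52 and 0.53. The lipase genes Lipe and Pnpla2, which release fatty acids from the droplet, were both at 0.13, with SDs of 0.20 and 0.03 (n = 4; limma adjusted p = 0.385 and 0.202). Cidec, the white fat relative of Cidea, was at -0.395 in mouse 1, 0.19 in mouse 2 and -0.26 in mouse 4 (limma adjusted p = 0.487). Cd36, a fatty acid transporter that endothelium and macrophages also express, was above 0 at 0.81 ± 0.63 (SD, n = 4; limma adjusted p = 0.0763) and was named after its value was seen. Several defining genes of fat gave no test. Plin1, the main perilipin of fat cells, and Cfd, the secreted protease adipsin, had no probe under their symbol. Fabp4 and the hormone gene Retn had a probe with no value, and Lep, Cebpa and Lpl had values on 2 arrays. Lep was at -0.02 in mouse 1 and -0.09 in mouse 3, and Lpl at -0.68 in mouse 1 and 0.03 in mouse 2. The label of fat cell genes thus rests on few measured markers.

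**Figure D3:**
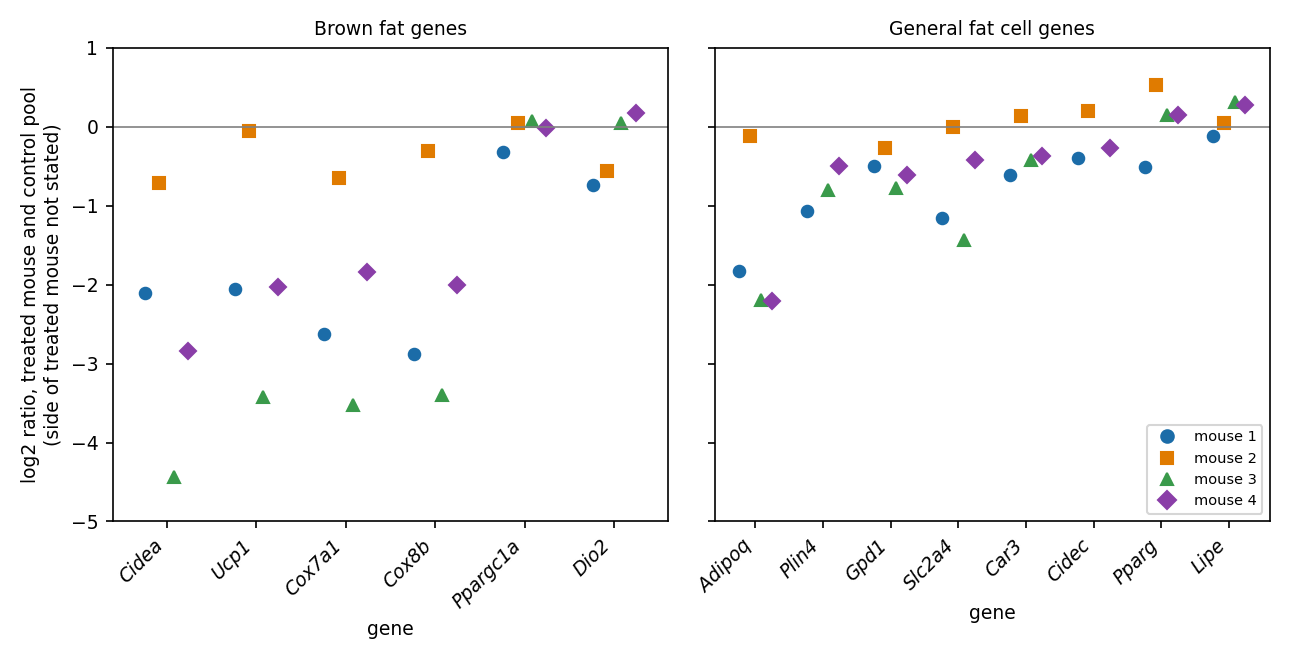
Log2 ratio of the treated mouse and the control pool (vertical axis) for 6 brown fat genes (left) and 8 general fat cell genes (right), with 1 marker per mouse. Cidea, Ucp1, Cox7a1 and Cox8b are at -1.84 or lower in mice 1, 3 and 4 and between -0.72 and -0.06 in mouse 2, whereas of the general genes Adipoq alone is below -1.5 in these 3 mice.

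Other lipid droplet genes lay on both sides of 0. Of 12 tested without the 4 members, 1 passed below 0 and 2 above, with a median of 0.18. Plin2, the perilipin of many cell types including macrophages and lipid-storing fibroblasts, had -1.35, -0.69, -0.94 and -0.31 in mice 1 to 4 (mean -0.82 ± 0.44, SD, n = 4; limma adjusted p = 0.0357). It was below 0 in every mouse and its mean was close to that of Plin4; its call was lost without mouse 1, 2 or 3 (limma adjusted p from 0.0732 to 0.102). Plin3, the perilipin expressed in most tissues, was above 0 at 0.32 ± 0.08 (SD, n = 4; limma adjusted p = 0.0372), a call lost whichever mouse was left out (limma adjusted p from 0.0760 to 0.122). Plin5, the perilipin of oxidative tissue, was at -0.44, 0.22 and 0.26 in mice 1, 2 and 4 (limma adjusted p = 0.964). Cav1, the caveolin gene of fat cells and endothelium, passed above 0 at 0.91 ± 0.18 (SD, n = 3; limma adjusted p = 0.0141), and in every fit on 3 mice. With the arrays of mice 1 and 2, and those of mice 3 and 4, as random blocks, 0 passed below and 1 above 0, and neither Plin2 nor Plin3 did (limma adjusted p = 0.0797 and 0.0823). Of the relatives of Cidea, Cideb had 2 values, 0.09 and 0.07.

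In the synthesis of glycerol phosphate and triglyceride, which Gpd1 feeds, 0 of 16 other genes passed below 0 and 2 passed above, with a median of -0.03. Gpam, which attaches the first fatty acid to glycerol phosphate, was at 0.94 ± 0.29 (SD, n = 4; limma adjusted p = 0.0125), and Lpin2, a phosphatidate phosphatase, at 0.67 ± 0.06 (SD, n = 4; limma adjusted p = 0.00745). Both had the opposite sign to Gpd1 on every array. Gpam was lost without mouse 4 (limma adjusted p = 0.0503). Gpd2, the mitochondrial partner of Gpd1 in the glycerol phosphate shuttle, was at -0.25 ± 0.07 (SD, n = 4; limma adjusted p = 0.0588), below 0 on all 4 arrays. Gpd1l had no probe under its symbol.

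Of 8 tested genes that receive, bind, process or resemble adiponectin, 4 passed above 0 and 0 below, and the median was 0.21. Adipor1, an adiponectin receptor, had 0.76, 1.08, 0.60 and 0.66 in mice 1 to 4 (mean 0.78 ± 0.21, SD, n = 4; limma adjusted p = 0.0121), and it passed whichever mouse was left out. The receptor gene was therefore on the other side of 0 from the hormone gene in every mouse. Erp44, a chaperone that retains adiponectin in the secretory pathway, was at 0.435 ± 0.21 (SD, n = 4; limma adjusted p = 0.0424) and was lost whichever mouse was left out (limma adjusted p from 0.0737 to 0.116). The adiponectin relatives C1qtnf3 and C1qtnf7 were at 0.70 ± 0.27 and 0.39 ± 0.07 (SD, n = 4; limma adjusted p = 0.0213 and 0.0226). C1qtnf3 passed only without mouse 4 among the fits on 3 mice, and C1qtnf7 in none of them, at limma adjusted p up to 0.0765. With the arrays of mice 1 and 2 and of mice 3 and 4 as random blocks, 2 of the 4 passed, Adipor1 and C1qtnf3, and Erp44 and C1qtnf7 did not (limma adjusted p = 0.0933 and 0.0501). Adipor2 had no probe under its symbol, and Cdh13, which binds adiponectin on endothelium, had 2 values, -0.015 and -0.09.

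Of 15 tested transcription factors of fat cell differentiation, 1 passed above 0 and 0 below, with a median of 0.14. This was Klf4, an early regulator that endothelium and epithelium also express, at 1.14 ± 0.36 (SD, n = 4; limma adjusted p = 0.0121). It passed whichever mouse was left out. Cebpa had values of -0.11 in mouse 1 and 0.23 in mouse 2.

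**Figure D4:**
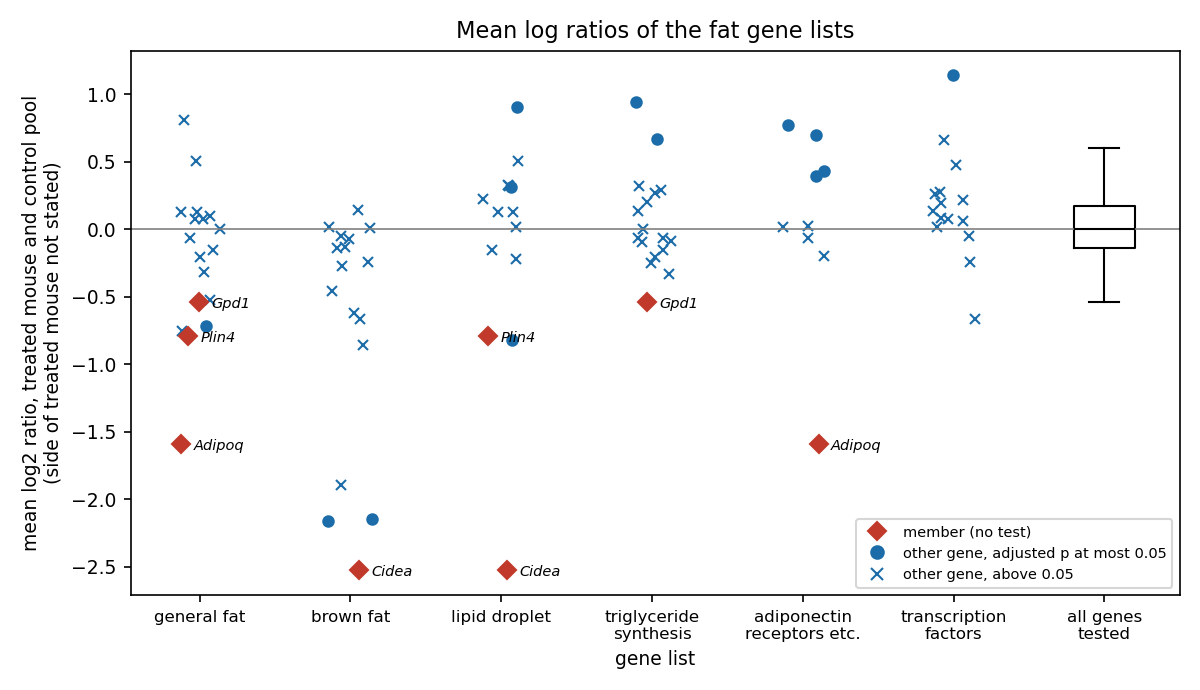
Mean log2 ratio (vertical axis) of each tested gene in 6 lists of fat biology, with members as diamonds, other genes that passed limma as filled circles and those that did not as crosses; the box at the right gives the quartiles of all 8384 genes tested, with whiskers at the 5th and 95th percentiles. Apart from the members, genes below -1.5 are in the brown fat list (Ucp1, Cox7a1 and Cox8b).

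The genes with the most similar profile were found by the root mean square difference of log2 ratios over the arrays of each member. For Cidea, among 6056 genes over 4 arrays, these were Ucp1 (0.73), Cox7a1 (0.73) and Nppb (0.75), beside a median of 2.88 over all genes. Nppb encodes a natriuretic peptide of the heart and had -2.68, -0.43, -3.38 and -1.99 in mice 1 to 4. For Adipoq they were Atp5j (0.60), a subunit of ATP synthase, Ucp1 (0.64) and Ldb3 (0.66), a Z-disc gene of striated muscle, beside a median of 1.82. Atp5j had -1.35, -0.69, -2.23 and -1.26 in mice 1 to 4. Within the 4 members, Plin4 and Gpd1 were the closest pair (0.34 over 3 arrays), and Cidea and Adipoq differed by 1.21. Near Plin4, over 3 arrays, were Cdkn1a (0.047), Polr1a (0.077) and Ebpl (0.088), and near Gpd1 were Clec1b (0.068), Tex38 (0.069) and Gp9 (0.077). Small ratios are easily matched: 508 genes lay within 0.5 of Plin4 and 1575 within 0.5 of Gpd1, against 0 within 0.5 of Cidea and 0 of Adipoq.

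Markers of striated muscle moved with the members in part. Among the 29 tested genes of a list for heart and skeletal muscle, 5 were past the test below 0 and 0 above it. The shares over all genes were 4.81% and 7.69%. Of the 29, 28 had a mean below 0, beside 4171 of all 8384 genes tested. The median was -1.002, and by mouse the medians were -2.11, -0.53, -0.38 and -0.34 in mice 1 to 4. Of the 5, Tnnc2 and Myl1 passed whichever mouse was left out, Ldb3 was lost without mouse 3 (limma adjusted p = 0.0687) or mouse 4 (0.0655), and Hrc and Nppb were lost without any 1 of mice 1, 3 and 4 (limma adjusted p from 0.0596 to 0.117). With the arrays of mice 1 and 2 and of mice 3 and 4 as random blocks, Ldb3, Hrc and Nppb did not pass either (limma adjusted p = 0.0571, 0.0588 and 0.0873). Hrc, a calcium-binding protein gene of heart and skeletal muscle, had -2.68, -0.84, -3.24 and -1.92, close to the profile of Cidea. Actc1, Myl4 and Myl7, chosen from the heart genes of the list, were above 0 in mouse 2, at 0.80, 0.44 and 0.07. They were lowest in mouse 3, at -2.45, -2.49 and -2.20, and Myl7 had no value in mouse 4. None of them passed (limma adjusted p = 0.211, 0.196 and 0.160), and they do not stand for all heart genes of the list. Some genes of skeletal muscle ran otherwise and some did not. Tnnt3, Acta1, Ckm and Myh2 were at -5.13, -2.87, -3.02 and -6.09 in mouse 1 and at -4.52 (Tnnt3), -2.33 (Acta1), -1.82 (Ckm) and -2.37 (Myh2) in mouse 2, but between -0.30 and 0.10 in mouse 3, where Cidea was lowest. Tnnc2 and Myl1, also of fast muscle, were at -2.485 or lower on every array with a value, with Myl1 at -2.80 in mouse 3. Hrc and the 3 heart genes and the 4 skeletal muscle genes of this comparison were named after their values were seen. The part of muscle or heart tissue in the ratios of Cidea and Adipoq was not tested.

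**Figure D5:**
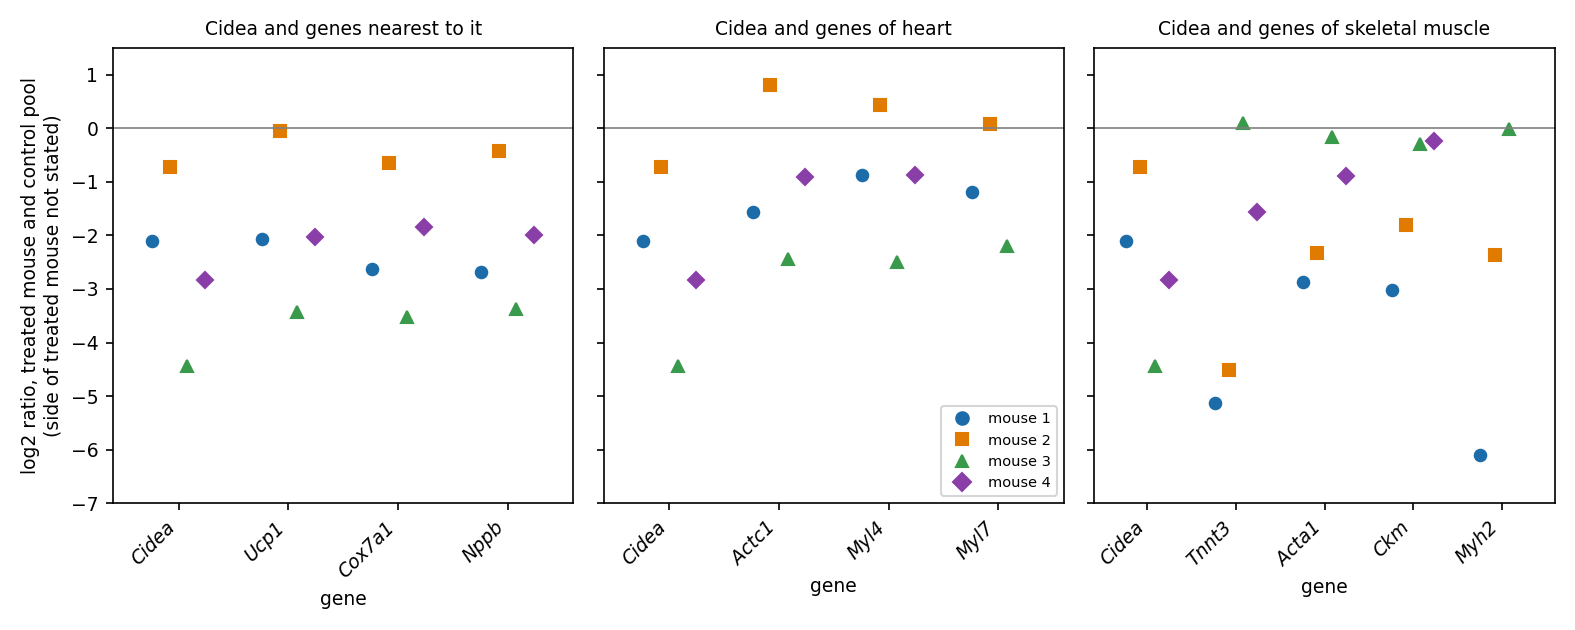
Log2 ratio of the treated mouse and the control pool (vertical axis) for Cidea beside its nearest genes (left), 3 heart genes (middle) and 4 skeletal muscle genes (right), with 1 marker per mouse. Mouse 3 is lowest in Cidea, its nearest genes and these 3 heart genes, and closest to 0 in Tnnt3, Acta1 and Myh2. The nearest genes were chosen by similarity to Cidea, and the heart and skeletal muscle genes after their values were seen. Myl1, a fast muscle gene not shown, was at -2.80 in mouse 3.

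Markers of other cell types that could accompany fat lay on both sides of 0, and those of endothelium above it. Of 10 tested genes of preadipocytes and stromal cells, 1 passed below 0 (Pi16, an adventitial fibroblast gene, at -0.48 ± 0.19, SD, n = 4; limma adjusted p = 0.0282, lost whichever mouse was left out, at up to 0.0796) and 0 above, with a median of 0.03. Of 6 mesothelial genes, 0 passed below and 1 above 0, which was Gpm6a at 0.87, with a median of -0.08. Of 9 genes of thymus and lymph node T cells, 1 passed on each side, Ccr9 at -0.39 and Cd2 at 0.47, with a median of -0.07. Of 11 genes of lipid-laden macrophages, 2 passed on each side, and the median was -0.065. Apoe at 0.96 and Mrc1 at 0.74 passed above 0, and Plin2 below it. Another gene that passed below 0 was not among the named genes. Endothelial genes, 7 tested, had 5 above 0 and 0 below past the test, with a median of 0.91, among them S1pr1 at 1.03 and Tek at 1.18. Of these, Gpm6a was lost without mouse 1 or 3, Ccr9 in every fit on 3 mice, Cd2 and Apoe without mouse 1, 3 or 4 and Mrc1 without mouse 3 or 4 (adjusted p of limma up to 0.129), whereas S1pr1 and Tek passed in every such fit.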

How the data were processed

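Lung RNA of 4 bleomycin-treated mice was set against 1 control pool on 2-colour arrays, per the labels. The authors deposited 1 log ratio per spot and array, read here as log2; its base is not stated, and the sources used here name no scanner, dye, background step or normalization, nor the direction of the ratio or the rule for empty spots. Spots were named through the platform annotation, which gave 14722 of 17280 spots 1 symbol (0 were changed by a match to RefSeq). Each array was centred on its median, and probes of a symbol were averaged. Genes with a value on at least 3 arrays (8384) were tested against 0 with limma 3.58.1 in R 4.3.3 (lmFit and eBayes). The test was two-sided, with Benjamini-Hochberg adjustment and a threshold of 0.05. The same steps were also run on simulated data with independent arrays, a check that did not cover correlation between arrays. The labels number the mice, and each was taken as 1 replicate. The number of arrays limits the precision. In fits on 3 mice, the same genes were kept with at least 2 values.

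The members, the gene lists and the rule for named genes were chosen with earlier results of these data known. The rule takes the members, 29 fixed genes of fat biology, listed fat genes past the test, up to 3 genes past the test of each other list, and the 3 genes nearest to each member. Alternatives were no centring, arrays scaled to 1 spread, the median of probes, values on all 4 arrays, robust eBayes, leaving out each mouse and, chosen after seeing the data, random blocks. Columns of other samples numbered 0.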

Additional observations from a re-analysis of the deposited data

Results flagged for a closer look

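One value among the 50 named genes with 4 values stood apart from the other mice by its gap to the nearest of them. Pi16, an adventitial fibroblast gene, was at -0.76 in mouse 3 and between -0.43 and -0.37 in the others. The gap was 0.857 of the range, above Dixon's critical value for 4 samples. Chance flags about 1 in 20 such groups. None of Cidea, Adipoq and Gpd1 stood apart by this measure, although mouse 2 was closest to 0 in all 3, and Plin4 has too few values for it. In Adipoq the gap of mouse 2 fell just short of the critical value. The SD of Adipoq was 0.99 with that mouse and 0.21 without it.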

How the results depend on the processing

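The means of the 4 members kept their sign, and stayed within 1 SD of the reported value, without centring, with arrays scaled to 1 spread, with the median of probes and whichever mouse was left out. Leaving out 1 mouse gave -3.13 to -1.89 for Cidea, -2.08 to -1.38 for Adipoq, -0.94 to -0.65 for Plin4 and -0.63 to -0.46 for Gpd1, and -1.16 to -0.50, -2.99 to -1.69 and -2.50 to -1.43 for Cidea minus Adipoq, Plin4 and Gpd1. With values on all 4 arrays required, Plin4 and its difference from Cidea gave no value. Over the whole table, 86 to 162 genes passed below 0 and 198 to 411 above with 3 mice, against 403 and 645 with 4. Without 1 mouse, 0 to 2 other general fat cell genes passed below 0 and 0 to 1 above, and 0 to 3 other brown fat genes passed below. With the arrays of mice 1 and 2, and of mice 3 and 4, as random blocks, 116 genes passed below 0 and 286 above, with 0 other general fat cell genes and 0 other brown fat genes below 0; limma without blocks gave 1 and 2 of these. Of the lipid droplet and adiponectin lists, 0 and 0 passed below 0 and 1 and 2 above with these blocks. The cause of these losses was not tested. No paired analysis was possible because there is 1 group of mice against 1 shared pool.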
